A study of Mus musculus with 12 samples.

Results

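The ISWI chromatin remodeler genes were followed in RNA-seq counts of mouse mesangial cells (MMC), the contractile support cells of the kidney glomerulus. The set held 10 named genes of 25230 genes counted: Smarca5, Smarca1, Baz1a, Baz1b, Baz2a, Baz2b, Bptf, Rsf1, Chrac1 and Pole3, matched by symbol with none missing. MMC were primary cultures prepared from glomeruli of wild-type (WT) mice or of mice of a line labelled lncMGC_KO (KO), in which CRISPR-Cas9 removed a short stretch just after the transcription start of the long non-coding RNA lncMGC. Cells of each genotype were either the untreated control, kept serum-depleted (SD), or received TGF-β (10 ng/ml, 24 h). The labels do not say whether the TGF-β cells were serum-depleted as well. The 4 resulting groups, called WT-SD and WT-TGF for wild type and KO-SD and KO-TGF for the mutant line, had 3 libraries each. The labels do not say whether the 3 libraries of a group came from separate cultures or animals, so the tests measure only the spread between these libraries. A single KO line was sequenced, and the age and sex of the mice are not in the labels used here.

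ISWI remodelers are ATP-driven machines that slide nucleosomes along DNA and set even spacing between them. Each is built around either SMARCA5 (also called SNF2H) or SMARCA1 (also called SNF2L), the motor ATPases, and a large partner that gives the complex its name and its place of action. BAZ1A makes the ACF complex, which becomes CHRAC when the small histone-fold proteins CHRAC1 and POLE3 join, BAZ1B makes WICH, BAZ2A makes the nucleolar complex NoRC, BAZ2B is a close relative of BAZ2A, RSF1 makes RSF, and BPTF is the large subunit of NURF. The study looked at SMARCA5 as a protein partner of lncMGC, and the comparisons here ask whether the mRNA of the remodeler itself moved with TGF-β or with the lncMGC deletion.

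Each library held 19898050 to 22827706 counts on genes. Libraries within a group were close to each other, with a chi-square of their counts per degree of freedom of 1.35 to 2.57 for 10 of the 12 pairs. The library KO-SD replicate 1 stood further from the others of its group (5.01 against replicate 2 and 4.16 against replicate 3), so values without it are given where they matter. lncMGC is not among the genes counted. Mirg, which overlaps the end of lncMGC and lies outside the deletion, was at 2.33 ± 0.308 CPM in WT-SD and at 3.67 ± 0.548 CPM in the libraries labelled KO-SD (SD, n = 3; CPM is the count scaled to library size, with TMM factors, as edgeR defines it). In a fit over all genes with any count, Mirg was higher in KO-SD (FDR = 6.51e-05), a comparison that 41.3% of those genes passed. In TGF-β it was at 3.59 CPM in WT and 4.27 in KO, with overlapping libraries (FDR = 0.145 in the same fit). Mirg was thus not lower in the libraries labelled KO, whereas the study reports lower Mirg in KO than in WT cells by RT-qPCR. The cause of this difference was not tested, and the genotype labels were not checked in another way. Directions for KO below follow the labels only. The mesangial markers Pdgfrb, Acta2 and Tagln were abundant in every group (summed level of 8 markers 2547 to 11089 CPM), led by Acta2. Other markers of the list were low in some or all groups: Thy1 was at or near 0, Des was at 7.68 CPM in WT-SD and at 0.529 in KO-SD and 0.247 in KO-TGF, Itga8 was at 0.637 CPM in KO-TGF, and 5 of the 8 were above 1 CPM in KO-TGF. Markers of other kidney cells also differed between groups. The summed level of 6 macrophage markers was 24.2 to 25.7 CPM in WT-SD, 14.6 to 17.8 in WT-TGF, 2.06 to 2.22 in KO-SD and 0.801 to 1.44 in KO-TGF, with Adgre1 and C1qa at 0 in both KO groups. For 6 podocyte markers it was 460 to 468, 455 to 474, 218 to 227 and 205 to 220 CPM in the same order of groups, most of it Synpo, and for 6 endothelial markers, nearly all Ehd3, it was 33.0 to 33.4, 20.1 to 22.5, 17.2 to 18.4 and 9.23 to 10.8 CPM. The part of other cells in the values below was not tested, and in bulk libraries fewer cells of a type and less RNA per cell cannot be told apart.

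A gene was tested when it reached an RPKM (CPM per kilobase of exon) over 1 in at least 1 library. This left 11468 genes and 9 of the 10 remodeler genes. Smarca1, at 0.689 RPKM at most, fell under that limit and was instead read from a second fit without the limit, over the 18565 genes that had any count. With TGF-β in WT, Smarca5, Baz1a, Baz2a and Pole3 rose and Baz1b, Baz2b and Bptf fell, so that 7 of the 9 genes passed an FDR of 5%, where FDR is the p-value adjusted over all genes tested. Of all genes tested, 72.5% passed in this comparison, 35.9% upward and 36.5% downward, so the share among the remodeler genes was close to the background. In KO, Smarca5, Baz1a and Baz2a rose and Baz1b, Baz2b and Bptf fell, 6 of 9 genes, against 74% of all genes tested (35% upward and 39.1% downward). None of the 9 changed by more than 2-fold, which 9.86% of all genes did in WT and 13.4% in KO. The median size of the log2 change over the 9 genes was 0.20 in each genotype, below the median over all genes tested of 0.28 in WT and 0.31 in KO. Libraries of TGF-β and SD did not overlap for 8 of the 10 genes in WT and for 7 in KO, against 75.3% and 74.4% of all genes tested.

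**Figure D1:**
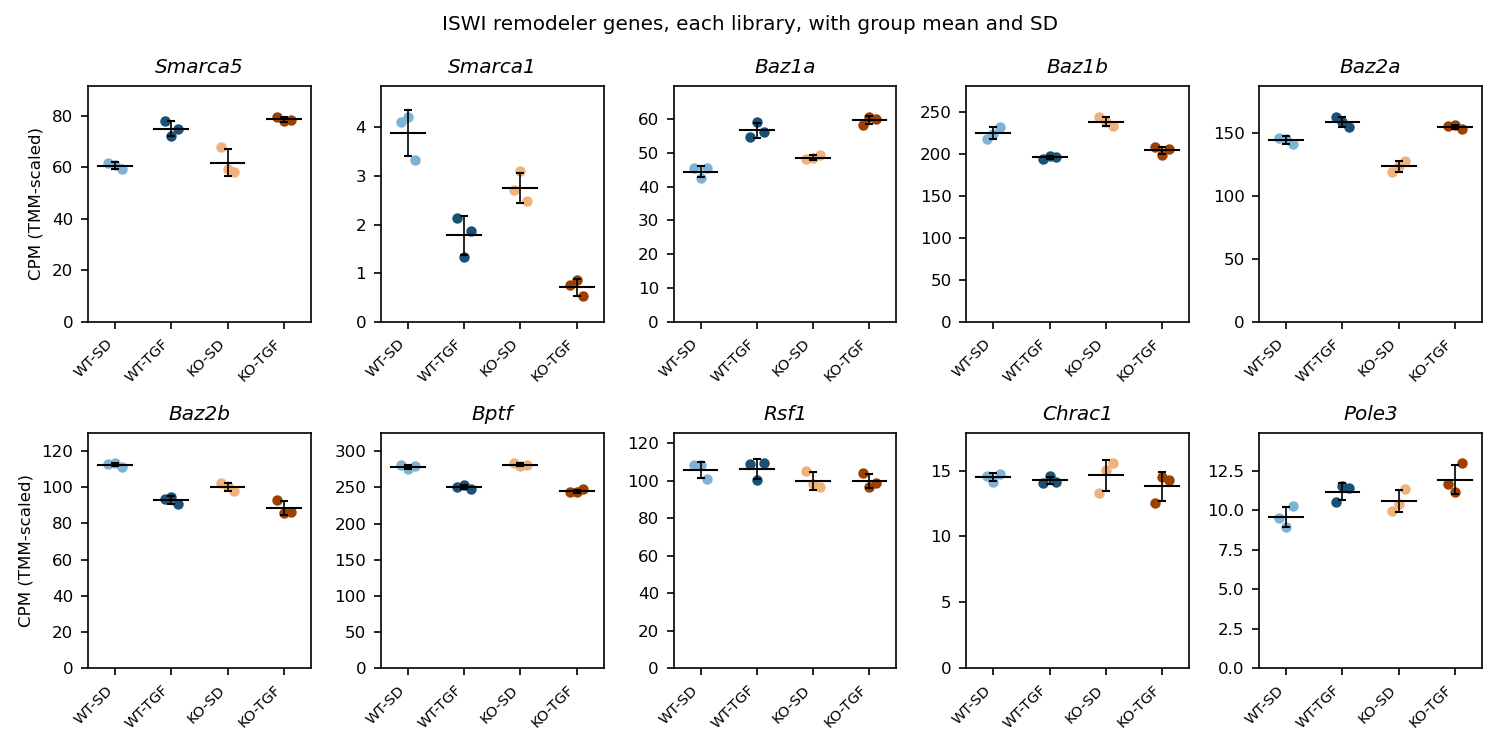
CPM (TMM-scaled, linear axis from 0) of the 10 ISWI genes in each of the 12 libraries, 1 point per library, with a horizontal line for the group mean and bars for the SD (n = 3). Smarca5 and Baz1a were higher in both TGF-β groups than in both SD groups, and Smarca1 took 4 separate levels from 3.88 CPM in WT-SD to 0.709 in KO-TGF.

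The ATPase genes moved in opposite directions. Smarca5 (chr8:80698507-80739497, minus strand, GRCm38) encodes the catalytic subunit of most ISWI complexes. Its CPM was 61.8, 60.9 and 59.2 in the WT-SD libraries and 77.9, 72.1 and 75.0 in WT-TGF. In KO-SD it was 67.7, 59.1 and 58.3, and in KO-TGF 79.6, 78.0 and 78.2. Every TGF-β library was thus above every SD library, and KO-SD replicate 1 was the highest of the SD libraries. Smarca5 rose with TGF-β by 0.31 ± 0.045 on the log2 scale in WT (SE, FDR = 4.42e-07) and by 0.35 ± 0.045 in KO (FDR = 4.77e-08), which are increases of 23.7% and 27.3%. Without KO-SD replicate 1 the log2 fold change in KO was 0.42.

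Between genotypes, Smarca5 did not pass the test in either condition. The log2 fold change of KO against WT was 0.026 in SD (95% interval -0.068 to 0.12, FDR = 0.656) and 0.068 in TGF-β (-0.022 to 0.16, FDR = 0.198), and the former was -0.046 without KO-SD replicate 1. The upper ends of these intervals, 8.62% in SD and 11.6% in TGF-β, are the largest increases in KO that they allow. The response to TGF-β differed between KO and WT by 0.042 (-0.088 to 0.17, FDR = 0.694).

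Smarca1 (chrX:47809368-47892974, minus strand), the other motor ATPase, was low to begin with and fell with TGF-β in WT and in KO. Its raw counts were 90, 97 and 73 in WT-SD, 45, 30 and 38 in WT-TGF, 59, 64 and 54 in KO-SD, and 14, 16 and 10 in KO-TGF. These correspond to 3.88 ± 0.482, 1.78 ± 0.403, 2.76 ± 0.310 and 0.709 ± 0.168 CPM (SD, n = 3), and no 2 groups overlapped. In the fit without the limit, TGF-β lowered Smarca1 by 2.14-fold in WT (log2 fold change -1.10 ± 0.17, FDR = 3.86e-10) and by 3.82-fold in KO (-1.93 ± 0.23, FDR = 7.56e-16). In that fit 51.6% and 52.3% of genes passed the test. Smarca1 was also lower in the libraries labelled KO, by 1.38-fold in SD (-0.46 ± 0.15, FDR = 0.00735, background 41.3%) and by 2.47-fold in TGF-β (-1.30 ± 0.26, FDR = 2.57e-06, background 39%). Its response to TGF-β was larger in KO by -0.84 ± 0.31 (FDR = 0.0385, background 17.3%), but this difference passed the test in 8 of 16 alternatives, and leaving out WT-SD replicate 3, WT-TGF replicate 1 or 3, KO-SD replicate 2, or KO-TGF replicate 1 or 3 ended the call, at values of -0.88 to -0.66, as did DESeq2 (-0.80) and a filter of CPM over 1 in at least 3 libraries (-0.82). The call in SD was lost without WT-SD replicate 2 (-0.40) or KO-SD replicate 3 (-0.39) and with DESeq2 (-0.49). The summed level of 6 tubular markers, led by Lrp2, took the same order of groups as Smarca1: 72.3 to 78.8 CPM in WT-SD, 20.4 to 22.8 in KO-SD, 18.4 to 20.0 in WT-TGF and 6.98 to 7.26 in KO-TGF, with the defining markers Slc34a1 and Umod at 0 throughout. Single markers did not take this order as group means. Lrp2 and Cdh16 were higher in WT-TGF (11.7 and 6.13 CPM) than in KO-SD (10.8 and 2.71). Aqp1 was highest in KO-SD (6.81 CPM) and Slc12a1 in KO-TGF (3.05 CPM). The part of tubular cells in the Smarca1 values was not tested. Since Smarca1 is X-linked, genes that mark sex were read as well. Xist did not exceed 0.410 CPM in any library, and the Y-linked Ddx3y was at 164 to 203 CPM in all groups. Other Y-linked genes were not level. By group means, Eif2s3y was at 76.5 CPM in WT and 56.7 in KO under SD, and at 71.2 and 52.5 under TGF-β. Kdm5d was at 64.0 and 54.1 CPM under SD, and at 51.5 and 49.5 under TGF-β. Uty was at 46.4 and 42.8, then at 42.4 and 38.1. Of the 4 sex-linked genes tested, 3 were lower in KO at an FDR of 5% under SD and 2 under TGF-β, with 0 higher. The cause of these differences was not tested.

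Per kilobase of exon, Smarca5 made up 92.5% ± 0.748 of the summed RPKM of the ATPase pair in WT-SD, 97.1% ± 0.545 in WT-TGF, 94.6% ± 0.731 in KO-SD and 98.9% ± 0.267 in KO-TGF (SD, n = 3). The share was higher by 4.60 percentage points with TGF-β in WT and by 4.27 in KO, and it was higher in KO by 2.11 points in SD and by 1.78 in TGF-β. The libraries of the groups compared did not overlap in any of these 4 comparisons, and the two-sided exact permutation test gave p = 0.1 in each (0.1 after adjustment over the 4), the smallest value that 3 against 3 libraries allow. The level of Smarca5 has a limit of its own: 34.2% of the 51-base stretches of its mRNA, the length of a read, also occur in transcripts of 6 other genes, mainly the pseudogene Gm13135. Reads that aligned to several places were left out by the counting, and what this took from the level of Smarca5 was not tested. Smarca1 had no such shared stretch.

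The promoters of the ATPase genes, together with that of Baz2a, whose response differed between genotypes, are shown because these genes moved apart. They run 5′ to 3′ from 250 bases before to 50 bases after the transcription start given for each gene in the RefSeq promoter table (GRCm38.p6), with CpG dinucleotides in capitals: Smarca5 on the minus strand of chr8:80739410-80739709, Smarca1 on the minus strand of chrX:47892564-47892863 and Baz2a on the plus strand of chr10:128092533-128092832. The start used for Baz2a, and likewise that for Baz2b, is an internal start, inside the gene as located below, and not its outermost 5′ end.
Smarca5: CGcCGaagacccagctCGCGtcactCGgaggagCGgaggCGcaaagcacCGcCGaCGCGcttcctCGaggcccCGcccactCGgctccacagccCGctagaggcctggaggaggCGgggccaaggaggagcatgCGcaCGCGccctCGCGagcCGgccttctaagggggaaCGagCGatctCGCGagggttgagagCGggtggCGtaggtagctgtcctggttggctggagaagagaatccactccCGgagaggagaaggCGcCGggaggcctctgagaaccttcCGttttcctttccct
Smarca1: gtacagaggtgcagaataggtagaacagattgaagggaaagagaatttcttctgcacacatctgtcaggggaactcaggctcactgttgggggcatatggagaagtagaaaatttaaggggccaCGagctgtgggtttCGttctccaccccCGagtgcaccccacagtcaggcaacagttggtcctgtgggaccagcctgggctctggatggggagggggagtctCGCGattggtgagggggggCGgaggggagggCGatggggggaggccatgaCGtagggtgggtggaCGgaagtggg
Baz2a: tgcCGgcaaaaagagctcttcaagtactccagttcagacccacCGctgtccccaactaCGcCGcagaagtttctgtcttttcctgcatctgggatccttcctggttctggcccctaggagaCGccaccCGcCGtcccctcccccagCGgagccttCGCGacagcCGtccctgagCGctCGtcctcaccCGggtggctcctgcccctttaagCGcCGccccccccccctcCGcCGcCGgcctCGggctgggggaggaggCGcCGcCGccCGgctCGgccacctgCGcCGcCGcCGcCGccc

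The Smarca5 promoter held 32 CpG dinucleotides, more than 90.5% of 32851 mouse promoters, and that at the internal start of Baz2a held 30, more than 88.3%. Smarca1 had 9 CpG (more than 54.2% of promoters), near the median of 7. The letters CAGAC, the SMAD box read by the signal transducers of TGF-β, were searched on both strands and occur in 49.6% of all promoters. They were found in the promoters of Baz2a (1 match, 216 bases before the start), Baz1b (2) and Pole3 (2), and not in the windows of Smarca5, Smarca1, Bptf or the internal start of Baz2b. Genes that rose and genes that fell were thus on either side of this count. The GC box GGGCGG, also searched on both strands and present in 35.7% of promoters, was found in the promoters of Smarca5 (1), Smarca1 (1), Baz1b (2), Baz2a (3) and Bptf (2).

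Of the ACF and CHRAC subunits, Baz1a rose with TGF-β and Pole3 rose in WT, whereas Chrac1 did not pass the test. Baz1a (chr12:54892989-55014348, minus strand) encodes the DNA-binding partner of SMARCA5 in both complexes. Its CPM was 45.4, 42.5 and 45.4 in WT-SD, 54.6, 59.2 and 56.1 in WT-TGF, 48.1, 48.5 and 49.3 in KO-SD, and 58.3, 60.7 and 60.0 in KO-TGF. The TGF-β libraries were all above the SD libraries, and the KO-SD libraries were all above WT-SD. Baz1a rose by 0.35 ± 0.041 in WT (log2, FDR = 6.06e-09) and by 0.30 ± 0.041 in KO (FDR = 1.44e-07). It was higher in KO-SD than in WT-SD by 0.13 ± 0.042 (FDR = 0.00922), a call lost without WT-SD replicate 2 (0.097), with DESeq2 (0.12) and under library size scaling (0.056). In Baz1a 5.61% of 51-base stretches were shared with the pseudogene Gm48990.

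Pole3 (chr4:62522649-62525068, minus strand) encodes a histone-fold protein that is also a subunit of DNA polymerase epsilon. It was at 9.48, 8.95 and 10.3 CPM in WT-SD, 10.5, 11.5 and 11.4 in WT-TGF, 9.97, 10.4 and 11.3 in KO-SD, and 11.7, 11.2 and 13.0 in KO-TGF. The WT groups stood apart and the KO groups overlapped. Pole3 rose in WT by 0.22 ± 0.085 (FDR = 0.0193), which was lost without WT-SD replicate 2 or WT-TGF replicate 2 or 3 (0.18 to 0.21), with DESeq2 (0.22) and under library size scaling (0.070), and its value in KO was 0.18 ± 0.085 (FDR = 0.0626). The responses were not shown to differ, with a difference of -0.049 (95% interval -0.29 to 0.20, FDR = 0.825). Chrac1 (chr15:73090392-73097554, plus strand), the histone-fold partner of POLE3, stayed between 12.6 and 15.5 CPM over the 12 libraries, with log2 fold changes of -0.024 in WT (95% interval -0.17 to 0.12) and -0.086 in KO (-0.24 to 0.068).

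Baz1b (chr5:135187264-135246129, plus strand), the WICH subunit that also phosphorylates the histone variant H2AX, fell with TGF-β. Its CPM was 218, 224 and 232 in WT-SD and 194, 198 and 197 in WT-TGF. The libraries labelled KO-SD held 244, 238 and 234, and KO-TGF held 208, 199 and 206. In each condition the KO libraries were above the WT libraries and in each genotype the TGF-β libraries were below SD. Baz1b fell by 0.20 on the log2 scale in WT (SE 0.028, FDR = 2.96e-07) and by 0.23 in KO (SE 0.028, FDR = 2.15e-08). It was higher in KO-SD by 0.087 ± 0.028 (FDR = 0.00815), a call lost without WT-SD replicate 1 (0.065), with only the groups compared (0.069) and under library size scaling (0.014), and the value in TGF-β, 0.057 ± 0.028, did not pass (FDR = 0.0887).

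Baz2a and Baz2b, which encode related bromodomain proteins, moved in opposite directions with TGF-β and in the same direction with genotype. Baz2a (chr10:128091577-128129303, plus strand), whose protein TIP5 silences ribosomal RNA genes as part of NoRC, was at 146, 145 and 141 CPM in WT-SD and 163, 159 and 154 in WT-TGF. It was at 119, 123 and 127 CPM in KO-SD and 155, 156 and 153 in KO-TGF. The KO-SD libraries were the lowest of all 12, while KO-TGF and WT-TGF overlapped. Baz2a was 14.5% lower in KO-SD against WT-SD (log2 fold change -0.23 ± 0.030, FDR = 1.61e-07), and the value in TGF-β was -0.036 (95% interval -0.097 to 0.025, FDR = 0.316). It rose with TGF-β by 0.14 ± 0.030 in WT (FDR = 0.00013) and by 0.33 ± 0.030 in KO (FDR = 4.82e-11). The difference of these responses, 0.19 ± 0.042, passed the test (FDR = 0.000921), as it did in each of 17 alternatives (0.14 to 0.23). Of all genes tested, 25.4% differed in their response (8.78% with the larger value in KO, 16.6% with the smaller, and 2.74% by more than 2-fold), and Baz2a was the only 1 of the 9 remodeler genes to pass. A list of 13 proliferation genes had its highest summed level in the same group in which Baz2a was lowest, 583 to 594 CPM in KO-SD against 211 to 234 in WT-SD, 155 to 162 in WT-TGF and 172 to 180 in KO-TGF. Its part in the Baz2a values was not tested.

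Baz2b (chr2:59899363-60209839, minus strand) was at 113, 113 and 111 CPM in WT-SD, 93.3, 94.7 and 90.5 in WT-TGF, 102, 100 and 97.8 in KO-SD, and 92.8, 85.7 and 86.4 in KO-TGF. WT-SD stood above the 3 other groups, and the TGF-β groups overlapped. Baz2b fell with TGF-β by 0.28 in WT (log2, SE 0.034, FDR = 2.23e-08) and by 0.18 in KO (SE 0.035, FDR = 3.48e-05). In SD it was 10.9% lower in KO than in WT (-0.17 ± 0.034, FDR = 0.000108), and the value in TGF-β was -0.073 (FDR = 0.0856). The difference of its responses was 0.094 ± 0.049 (FDR = 0.175).

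Bptf (chr11:107033081-107132127, minus strand), the NURF subunit that binds methylated and acetylated histone tails, was the most abundant of the set in CPM. It was at 281, 276 and 279 CPM in WT-SD, 250, 253 and 248 in WT-TGF, 283, 280 and 281 in KO-SD, and 243, 244 and 247 in KO-TGF. The TGF-β libraries lay below the SD libraries in both genotypes. Bptf fell by 10.1% in WT (-0.15 ± 0.024, FDR = 1.54e-06) and by 13.0% in KO (-0.20 ± 0.024, FDR = 1.2e-08), and KO against WT did not pass in SD (0.014, 95% interval -0.035 to 0.063) or in TGF-β (-0.034, -0.084 to 0.016). Rsf1 (chr7:97579889-97692778, plus strand), the histone chaperone subunit of RSF, was at 96.3 to 109 CPM over the 12 libraries and overlapped in all 4 comparisons. Its log2 fold change with TGF-β was 0.0058 in WT (95% interval -0.076 to 0.087) and -0.0028 in KO (-0.086 to 0.081). In KO against WT it was -0.081 in SD (FDR = 0.0856) and -0.090 in TGF-β (FDR = 0.0626), and the value in SD passed the test without KO-SD replicate 1 (-0.12) or WT-SD replicate 3 (-0.12).

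Counted over the 9 tested genes, KO against WT in SD gave Baz1a and Baz1b higher and Baz2a and Baz2b lower, 4 of 9, where 55.9% of all genes passed (30.6% higher and 25.3% lower). In TGF-β, 0 of 9 passed edgeR's quasi-likelihood test, against 55.1% of all genes (27.3% higher and 27.9% lower). Before adjustment 1 of the 9, Rsf1, was under 0.05. DESeq2 and the fit without a filter also called 0 of the 9. The CPM filter, only the groups compared, the replicate block and library size scaling each called at least 1. Smarca1, outside the 9, was lower in KO-TGF in the second fit (FDR = 2.57e-06). Libraries did not overlap between genotypes for 5 of the 10 genes in SD and for 4 in TGF-β, against 59.2% and 61.6% of all genes tested. The median size of the log2 change between genotypes was 0.087 in SD and 0.068 in TGF-β over the 9 genes, and 0.16 and 0.17 over all genes tested. None of the 9 passed a fold of 2, as 6.35% of all genes did in SD and 5.95% in TGF-β.

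The directions with TGF-β are relative to the scaling. TMM placed the median of all genes tested at -0.0056 in WT and at -0.024 in KO, whereas scaling by library size alone moved it to -0.16 and -0.23. Under that scaling Smarca5 still rose, by 0.15 in WT and 0.15 in KO, and so did Baz1a (0.20 and 0.094), but Baz2a in WT turned to -0.017 and did not pass. The calls over the 9 genes moved from 4 higher and 3 lower to 2 higher and 5 lower in WT, and from 3 and 3 to 3 and 5 in KO. Over all genes they moved from 4122 higher and 4190 lower to 2647 and 5994 in WT, and from 4012 and 4479 to 2303 and 6661 in KO. Between genotypes the calls over the 9 genes moved from 2 higher and 2 lower to 0 and 4 in SD, and from none to 0 and 4 in TGF-β, and the median of all genes in TGF-β moved from -0.0035 to -0.12. The order of the members with TGF-β in each genotype was the same under both scalings. A change of scaling shifts every gene of a comparison by nearly the same amount, so the order is no test of it.

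**Figure D2:**
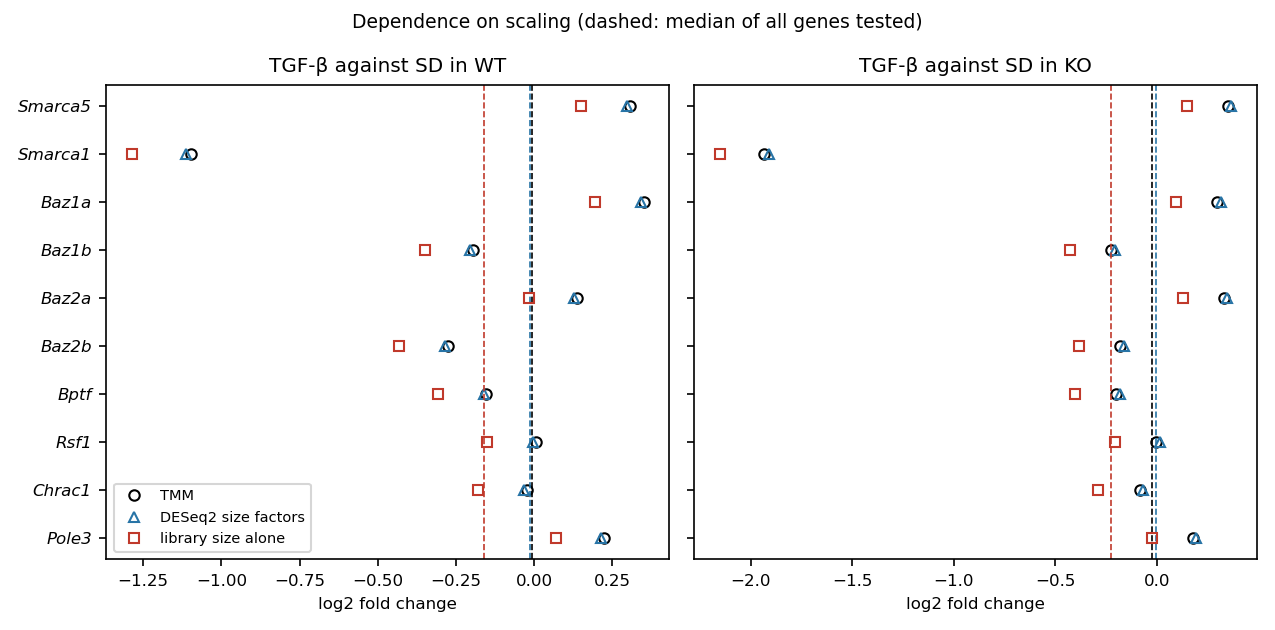
Log2 fold change of TGF-β against SD for each ISWI gene in WT (left) and KO (right) under TMM (circles), DESeq2 size factors (triangles) and library size alone (squares), with dashed lines at the median of all genes tested under each. TMM and DESeq2 nearly coincide, and library size alone gives lower values for all 10 genes, for example 0.15 in place of 0.31 for Smarca5 in WT.

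In level per kilobase of exon, Bptf was the highest of the set in every group (17.4 to 20.0 RPKM as group means), followed by Baz1b and Baz2a. Smarca5 came next, at 7.80 ± 0.167 RPKM in WT-SD, 9.64 ± 0.374 in WT-TGF, 7.93 ± 0.666 in KO-SD and 10.1 ± 0.110 in KO-TGF, apart from its neighbours in the order in all 4 groups. Below it, Baz2b, Baz1a and Chrac1 in WT-SD followed each other with overlapping libraries between neighbours (6.39, 6.21 and 6.16 RPKM). Baz1a stood ahead of Baz2b in the other groups, at 7.91 against 5.27 RPKM in WT-TGF, 6.79 against 5.69 in KO-SD and 8.33 against 5.02 in KO-TGF. Smarca1 was last in every group, at 0.116 to 0.634 RPKM. This order depends on the exon length used. With lengths of transcripts linked to RefSeq, chosen after the lengths were seen to differ (6492 in place of 13667 bases for Baz1b and 871 in place of 2353 for Chrac1), Baz1b led at 30.2 to 36.7 RPKM, Bptf came next at 21.3 to 24.5, Chrac1 moved to place 3 or 4, Smarca5 to place 5 or 6, and Smarca1 remained last.

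The pattern of Smarca5 over the 12 libraries was closest, by Pearson correlation of log2 CPM, to that of Prss23 (0.992), Ywhaz (0.992), Prkar1a (0.990), Mbnl1 (0.990) and Kpna4 (0.989), a description of 12 libraries that share 4 groups. Of 10 further ISWI partners, 9 were tested and Cecr2, a partner of SMARCA5 and SMARCA1 in other tissues, was near 0. With TGF-β 5 rose and 2 fell in WT, and 5 rose and 2 fell in KO, with a median log2 change over the 9 of 0.15 in WT and 0.11 in KO. These 7 of 9 stand beside 72.5% of all genes tested in WT and 74% in KO. Ddx21, an RNA helicase of the nucleolus, went from 127 ± 2.20 to 191 ± 6.51 CPM in WT (0.58, FDR = 3.54e-17), and Mybbp1a, a nucleolar protein, rose by 0.46. Dek, a chromatin protein, fell from 72.3 ± 1.93 to 45.2 ± 1.58 CPM (-0.68, FDR = 6.36e-13), and Hmgxb4 fell by 0.13. Between genotypes, 5 of the 9 partners were higher in KO-SD and 4 in KO-TGF, and none was lower, where 30.6% of all genes tested were higher and 25.3% lower in SD and 27.3% and 27.9% in TGF-β. Myo1c, the nuclear myosin found with WICH, was the furthest of them in TGF-β, at 477 ± 5.88 CPM in WT and 661 ± 9.08 in KO (0.47, FDR = 1.71e-17).

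The study tested by RNA immunoprecipitation 9 further proteins beside SMARCA5 for binding to lncMGC. Of their genes, 5 rose and 2 fell with TGF-β in WT, and 5 rose and 3 fell in KO, with Ybx1 (0.59) and Iqgap1 (0.48) rising and Numa1 (-0.41) and Smarcc2 (-0.36) falling most in WT. Smarca5 passed in neither condition, whereas 7 of the 9 differed between genotypes in SD (5 higher and 2 lower) and 7 in TGF-β, against 55.9% and 55.1% of all genes tested. Smarcc2, a core subunit of the SWI/SNF remodelers, was lower in KO, with log2 fold changes of -0.25 in SD and -0.21 in TGF-β. Whether Smarca5 differed from these genes in its genotype effect was not tested.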

How the data were processed

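Gene counts of 12 RNA-seq libraries (KAPA mRNA HyperPrep, single-end reads of 51 bases) were deposited by the authors as raw counts, made by aligning to mm10 with TopHat and counting uniquely aligned reads over RefSeq genes by strand with HTSeq. Rows that name no gene were left out of library sizes; reads outside genes were 10.3% to 15.4% and reads aligned to several places 11.2% to 11.7%, each of all counts in a library file. Groups came from the labels. Genes with RPKM above 1 in at least 1 library (GENCODE exon lengths) were tested with edgeR 4.0.16 in R 4.3.3 by quasi-likelihood on TMM-scaled counts, with all 4 groups in a single fit and Benjamini-Hochberg adjustment. The biological coefficient of variation was 2.68%. Scripts were tested on simulated data. Alternatives were DESeq2 1.42.0, library size scaling, a CPM filter, no filter, a replicate block, only the groups compared and leaving out each library. The members, the lists of related genes and the tests were chosen with earlier results of these data known. All 10 members were named, with up to 2 genes per direction of each other list, the sex-linked genes, the leading markers and the 5 genes most correlated with Smarca5. Promoters are from RefSeq, which matched 7 members.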

Additional observations from a re-analysis of the deposited data

Results flagged for a closer look

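The response to TGF-β differed between the genotypes for Smarca1 and Baz2a by the test of the difference itself. For Smarca1 the log2 fold change was -1.10 in WT and -1.93 in KO, a difference of -0.84, from 10 to 97 counts per library. That difference passed the test in only 8 of 16 alternatives, against 17 of 17 for Baz2a. For Baz2a it was 0.14 in WT and 0.33 in KO, a difference of 0.19, and all 3 KO-SD libraries were below the other 9.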

How the results depend on the processing

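Of 23 member results past an FDR of 5%, the 281 alternatives left 258 past the threshold in the same direction, took 22 under it and turned 1, Baz2a with TGF-β in WT, which was -0.017 under library size scaling. Under that scaling KO against WT was -0.046 for Baz1a, -0.063 for Baz1b, -0.024 for Pole3 and -0.052 for Smarca5 in TGF-β, and -0.059 for Bptf, -0.059 for Chrac1 and -0.047 for Smarca5 in SD. TGF-β gave -0.026 for Pole3 in KO and -0.15 for Rsf1 in WT, and the difference of responses was -0.0046 for Smarca5. With only the groups compared, Bptf was -0.0045 and Chrac1 -0.0047 in KO-SD against WT-SD, and Rsf1 0.017 with TGF-β in KO. Without a filter, Chrac1 was 0.0096 in WT and Rsf1 0.013 in KO, and with the CPM filter Rsf1 was 0.013 in KO. DESeq2 gave Rsf1 -0.0026 in WT, 0.015 in KO and 0.017 for the difference. None of these turned values but those of Baz2a had passed the test under TMM. The causes were not tested.

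The counts of members called moved as follows. Library size scaling gave 2 higher and 5 lower in WT and 5 lower in KO with TGF-β, 0 higher and 4 lower in KO-SD, 4 lower in KO-TGF and 1 lower for the difference of responses. KO-SD held 1 higher member with DESeq2 and 1 with only the groups compared. KO-TGF held 1 higher and 1 lower member with the CPM filter, 1 lower without a filter and 1 lower with only the groups compared. The difference of responses had 1 lower member without a filter. Smarca1, outside the 9 genes of the main count, was also tested with the CPM filter and without a filter. Smarca1 was the lower member in KO-TGF under both of these settings, and the lower member for the difference of responses without a filter.

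Leaving out a library gave 3 to 4 higher and 3 to 3 lower members with TGF-β in WT, 3 to 4 and 3 to 3 in KO, 1 to 2 and 2 to 3 in KO-SD, 0 to 1 and 0 to 1 in KO-TGF, and 1 to 2 and 0 to 0 for the difference of responses. The share of Smarca5 moved between 4.30 and 5.02 points with TGF-β in WT, 3.85 and 4.54 in KO, 1.83 and 2.54 in KO-SD, and 1.56 and 2.08 in KO-TGF. Values that turned ranged, for the difference of responses, from -0.057 to 0.026 (Baz1b), -0.13 to 0.037 (Chrac1), -0.10 to 0.034 (Pole3) and -0.049 to 0.050 (Rsf1), for KO-SD from -0.033 to 0.079 (Chrac1) and -0.046 to 0.066 (Smarca5), for KO-TGF from -0.070 to 0.032 (Chrac1), and for Rsf1 with TGF-β from -0.025 to 0.047 in WT and -0.029 to 0.039 in KO.

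Same-numbered libraries deviated together little if at all (correlations of -0.0187 to 0.0704). Such low correlations show no clear pairing by replicate number and cannot exclude it. The replicate block gave 4 higher and 3 lower members in WT, 3 and 3 in KO, 2 and 3 in KO-SD, 0 and 1 in KO-TGF (Rsf1, -0.090) and 1 and 0 for the difference of responses. Smarca1, with 10 to 97 counts, and Pole3 and Chrac1, with 206 to 339, are limited most by depth.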

Other observations

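The paired ATPases of the SWI/SNF remodelers moved with TGF-β in the same directions as the ISWI pair. Smarca4 was at 215 ± 7.55 CPM in WT-SD, 281 ± 3.38 in WT-TGF, 246 ± 1.79 in KO-SD and 303 ± 6.24 in KO-TGF (SD, n = 3), and rose in both genotypes (0.38 and 0.30 on the log2 scale). Smarca2 was at 183 ± 6.01, 87.2 ± 3.41, 90.2 ± 3.43 and 37.6 ± 1.32 CPM, and its log2 fold change was -1.07 in WT and -1.26 in KO with TGF-β. Its log2 fold change of KO against WT was -1.02 in SD and -1.21 in TGF-β. The order of its group means was that of Smarca1, though the WT-TGF and KO-SD libraries overlapped. Of 22 SWI/SNF genes tested, 11 rose and 5 fell with TGF-β in WT and 8 rose and 7 fell in KO, where 72.5% of all genes tested passed in WT and 74% in KO.

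Of 18 CHD and NuRD genes, 7 rose and 7 fell in WT, and 8 rose and 6 fell in KO. Chd5 and Chd7 moved furthest, with log2 fold changes of -0.99 and 0.64 in WT, and Chd5 was at -1.85 in KO. Of 15 INO80 and SRCAP genes, 7 rose and 2 fell in WT, and 6 rose and 3 fell in KO. Both lists stand beside the same 72.5% and 74% of all genes tested.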
